A study of Mus musculus with 24 samples.

Results

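The cell cycle genes described here were 43 genes of DNA replication and mitosis, found by symbol among the 49280 features of the count table. They were picked by known function and split by role into 17 DNA replication genes and 26 mitosis genes. All 43 passed the filter on low counts, and the lowest count of any of them in any library was 147 reads. The libraries came from mouse lung organoids, in which primary epithelial cells of naïve wild-type mice grew beside CCL206 cells, an established line of mouse lung fibroblasts. For the first 14 days each culture received 5% cigarette smoke extract (CSE) or its vehicle. The organoids were then broken up into single cells and started again with a matched number of epithelial cells per culture and new CCL206 fibroblasts. From then until harvest on day 28 they had either vehicle or 100 nM tanimilast, an inhibitor of phosphodiesterase 4, together with 100 nM formoterol, a beta2-adrenergic agonist. Epcam-positive cells gave the epithelial libraries (Epi) and Epcam-negative cells the fibroblast libraries (Fib). Each fraction had the groups CSETF (CSE, then the drugs), TF (vehicle, then the drugs), CSE (CSE, then vehicle) and Veh (vehicle throughout), with 1 library from each of 3 mice. The labels state neither the strain nor the age of the animals. The wild-type genotype was shared by all 8 groups, the fibroblasts were a single line in every culture, and no group had CSE and drugs at the same time or either drug alone.

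Levels below are CPM, a gene's share of its library's reads on the usual scale, adjusted for library composition, and the 3 values of a group are given in the order mouse 1, mouse 2, mouse 3. A gene is said to have risen or fallen where edgeR's quasi-likelihood test gave an adjusted p under 0.05, with Benjamini-Hochberg adjustment over every gene tested. The main test had no term for the mouse, and a second test had the mouse as a block. Total counts ran from 31832267 to 47534709 per library. Epithelial markers (16 genes) summed to between 9425 and 14090 CPM in epithelial libraries, against 3430 to 6908 CPM in fibroblast libraries, and fibroblast markers (15 genes) to between 544 and 1998 CPM, against 3029 to 8987 CPM. Epcam itself had 258.6 CPM or more in every fibroblast library, so each fraction held RNA of the other cell type. Of the immune markers Ptprc was at 0 in 13 libraries and at 0.248 CPM or less in the others, and of the endothelial markers Pecam1 and Cdh5 had at most 1.42 CPM. These are bulk libraries, so fewer dividing cells and less of these RNAs in each dividing cell cannot be told apart. FibCSE from mouse 1 stood apart from the other Fib libraries, with 8987 CPM of fibroblast markers and the highest level of many mitosis genes, and results that rest on it are given without it as well.

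In a dividing cell, E2F transcription factors switch on the genes for nucleotide supply and DNA copying as the cell commits to S phase, and a later wave of genes for chromosome segregation is switched on in G2 and M by the MuvB complex with Mybl2 and Foxm1. The mini-chromosome maintenance proteins Mcm2 to Mcm7 form the helicase that opens DNA at origins, Pcna is the clamp that holds the polymerase on DNA, and cyclin B with Cdk1 drives entry into mitosis. In lung organoids, epithelial progenitors divide to form the spheres, so RNA of these genes is a common readout of growth.

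Promoter windows are shown for the genes that the comparison of the fractions turned on, which are the 3 mitosis genes and the 2 DNA replication genes with the largest rise in the epithelial fraction and the 3 genes that fell there, among genes with an entry in RefSeq. Each runs 5′ to 3′ from 250 bases before to 50 bases after the annotated start, on GRCm38.p6, and 35 of the 43 genes had such an entry, with 37 windows in all because Mcm7 and Prc1 have 2 each. Mcm4, Ccne2, Foxm1, Aurkb, Tpx2, Ccna2, Gins2 and Kif20a had none. Capitals mark 3 motifs searched on both strands. They are the E2F motif (TTTCCCGC, TTTCGCGC, TTTGCCGC or TTTGGCGC), the cell cycle homology region or CHR (TTTGAA), which the MuvB complex binds, and the CCAAT box (CCAAT), which the factor NF-Y binds.
Ccnb2 at chr9:70421505-70421804, minus strand: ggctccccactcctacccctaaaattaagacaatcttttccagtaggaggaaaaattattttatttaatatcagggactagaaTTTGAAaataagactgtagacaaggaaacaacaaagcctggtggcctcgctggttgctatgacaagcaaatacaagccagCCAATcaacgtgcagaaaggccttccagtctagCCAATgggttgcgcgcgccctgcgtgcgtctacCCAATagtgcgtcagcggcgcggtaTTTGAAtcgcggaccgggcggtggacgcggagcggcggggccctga
Cdc20 at chr4:118437294-118437593, minus strand: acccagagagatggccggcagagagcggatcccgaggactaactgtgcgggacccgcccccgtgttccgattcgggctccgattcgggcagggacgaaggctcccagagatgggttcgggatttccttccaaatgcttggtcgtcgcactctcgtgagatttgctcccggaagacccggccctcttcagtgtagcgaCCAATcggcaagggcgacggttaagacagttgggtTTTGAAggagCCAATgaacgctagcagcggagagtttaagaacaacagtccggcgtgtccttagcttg
Kif23 at chr9:61946750-61947049, minus strand: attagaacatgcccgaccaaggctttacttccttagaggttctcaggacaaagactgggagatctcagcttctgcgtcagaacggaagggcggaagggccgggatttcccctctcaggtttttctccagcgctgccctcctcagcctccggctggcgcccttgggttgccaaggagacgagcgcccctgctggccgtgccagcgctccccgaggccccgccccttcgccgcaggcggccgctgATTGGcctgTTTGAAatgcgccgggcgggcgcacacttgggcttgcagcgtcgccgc
Tk1 at chr11:117825965-117826264, minus strand: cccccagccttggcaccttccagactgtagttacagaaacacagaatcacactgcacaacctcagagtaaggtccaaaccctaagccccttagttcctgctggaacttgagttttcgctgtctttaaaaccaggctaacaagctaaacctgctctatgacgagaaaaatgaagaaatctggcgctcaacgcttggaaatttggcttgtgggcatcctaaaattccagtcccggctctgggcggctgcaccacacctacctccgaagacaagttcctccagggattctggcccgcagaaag
Mcm6 at chr1:128359656-128359955, minus strand: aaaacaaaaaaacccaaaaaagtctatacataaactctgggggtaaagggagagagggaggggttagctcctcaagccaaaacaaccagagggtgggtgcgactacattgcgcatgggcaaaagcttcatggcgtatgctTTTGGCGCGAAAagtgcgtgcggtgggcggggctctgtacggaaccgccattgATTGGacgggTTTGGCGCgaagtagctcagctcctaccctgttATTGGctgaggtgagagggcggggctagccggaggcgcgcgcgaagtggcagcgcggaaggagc
Tyms at chr5:30073576-30073875, minus strand: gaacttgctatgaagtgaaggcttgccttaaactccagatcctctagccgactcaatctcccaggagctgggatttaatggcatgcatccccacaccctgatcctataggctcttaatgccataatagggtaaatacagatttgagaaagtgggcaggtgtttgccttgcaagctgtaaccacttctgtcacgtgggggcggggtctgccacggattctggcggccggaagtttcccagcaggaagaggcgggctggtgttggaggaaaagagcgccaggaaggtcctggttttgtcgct
E2f1 at chr2:154569377-154569676, minus strand: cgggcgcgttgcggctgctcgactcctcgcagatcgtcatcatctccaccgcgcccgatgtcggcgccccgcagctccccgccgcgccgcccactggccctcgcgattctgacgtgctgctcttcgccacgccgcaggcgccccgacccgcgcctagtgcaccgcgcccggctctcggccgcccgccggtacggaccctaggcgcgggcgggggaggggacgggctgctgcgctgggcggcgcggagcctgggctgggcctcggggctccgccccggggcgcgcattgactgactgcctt
Cenpm at chr15:82244287-82244586, minus strand: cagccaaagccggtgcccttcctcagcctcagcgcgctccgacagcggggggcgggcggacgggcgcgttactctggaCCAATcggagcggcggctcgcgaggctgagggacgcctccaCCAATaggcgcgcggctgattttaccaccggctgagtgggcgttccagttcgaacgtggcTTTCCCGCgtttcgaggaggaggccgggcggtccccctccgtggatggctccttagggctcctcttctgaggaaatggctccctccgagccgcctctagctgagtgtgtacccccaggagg

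The windows of mitosis genes and of DNA replication genes held different motifs. A CHR was in 15 of 22 mitosis windows (68.2%) and in 1 of 15 DNA replication windows (6.67%), beside 17.9% of all 32851 mouse windows of that length. The E2F motif was in 2 of 22 mitosis windows (9.09%) and 6 of 15 DNA replication windows (40%), beside 2.26% of all windows. CCAAT boxes were in 19 of 22 mitosis windows (86.4%) and 9 of 15 DNA replication windows (60%), beside 37.4% of all windows. The Ccnb2 window held 2 CHR and 3 CCAAT boxes, those of Cdc20 and Kif23 held 1 CHR each, and the Mcm6 window held 3 E2F motifs, of which 2 overlap in the run TTTGGCGCGAAA. Cenpm was the exception among the mitosis genes shown, with an E2F motif, 2 CCAAT boxes and no CHR. None of the 3 motifs, spelled as above, was in the Tk1, Tyms and E2f1 windows. Sequence outside the windows was not searched, so a motif at another start of these genes would not have been seen. Whether the annotated start is the one used in these cells was not tested. The windows therefore do not show that the promoters of Tk1, Tyms and E2f1 lack these motifs. All motifs given here are matches of letters, and binding was not measured.

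The DNA replication genes differed widely in level. Per kilobase of the longest coding transcript, Pcna was the highest of all 43 genes, with 102.6 ± 11.1 CPM per kilobase in epithelial libraries and 78.5 ± 10.5 CPM per kilobase in fibroblast libraries (SD, n = 12 each). Next in the epithelial libraries came Rrm1, the large subunit of ribonucleotide reductase, with 33.4 ± 7.26 CPM per kilobase in epithelial libraries and 25.4 ± 5.63 CPM per kilobase in fibroblast libraries, where Mcm7 stood above it at 26.8 ± 4.56 CPM per kilobase, within the spread. Of the helicase subunits Mcm7 was the highest at 27.3 ± 3.51 CPM per kilobase in epithelial libraries. Mcm6, Mcm3 and Mcm4 followed at 21.8 ± 3.15, 21.5 ± 4.05 and 20.8 ± 3.75 CPM per kilobase, which lay within their spread of each other, and Mcm5 was the lowest at 11.5 ± 2.58 CPM per kilobase. Among mitosis genes Top2a, the topoisomerase that untangles chromosomes, was the highest, with 27.8 ± 7.63 CPM per kilobase in epithelial libraries. The lowest were Mybl2 and Ccne2, with 2.57 ± 0.688 and 2.79 ± 0.361 CPM per kilobase in epithelial libraries, and Mybl2 also stood lowest in fibroblast libraries with 1.79 ± 0.667 CPM per kilobase.

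The mitosis genes stood highest in the same mouse nearly throughout. In 7 of the 8 groups all 26 mitosis genes were highest in mouse 1, and in FibTF 21 of 26 were, with the other 5 highest in mouse 2. Of all 17382 genes compared in this way, 25.7 to 39.8% were highest in mouse 1, depending on the group. Over the whole list of 43, between 27 genes (FibTF) and 42 genes (EpiCSE) were highest in mouse 1. The median mitosis gene stood in mouse 1 at between 1.28 times (FibTF) and 2.89 times (FibCSE) the mean of the other 2 mice, and the median DNA replication gene at between 1.04 times (FibTF) and 1.44 times (FibCSE). Over all genes the median ratio was between 0.969 and 1.005. With 1 animal behind each number, this is a description of 3 mice and their cultures, and what else differed between these animals or culture days was not tested.

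The summed level of the 26 mitosis genes shows the same order by library. It was 1388, 597.3 and 873.2 CPM in EpiCSETF, 1215, 890 and 932.1 CPM in EpiTF, 1526, 797.3 and 887 CPM in EpiCSE and 1376, 770.2 and 1096 CPM in EpiVeh. In the fibroblast fraction it was 986.3, 497.4 and 565 CPM in FibCSETF, 807, 701.6 and 537.9 CPM in FibTF, 1665, 555.7 and 556.8 CPM in FibCSE and 1248, 649.1 and 744.8 CPM in FibVeh. Mouse 1 was highest in all 8 groups, and the groups of a fraction overlapped throughout. The 17 DNA replication genes spread less, with sums of 694.4 to 1144 CPM (median 878.8) in epithelial libraries and 595.3 to 1094 CPM (median 724.7) in fibroblast libraries. FibCSE mouse 1 was the highest Fib library on both sums.

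**Figure D1:**
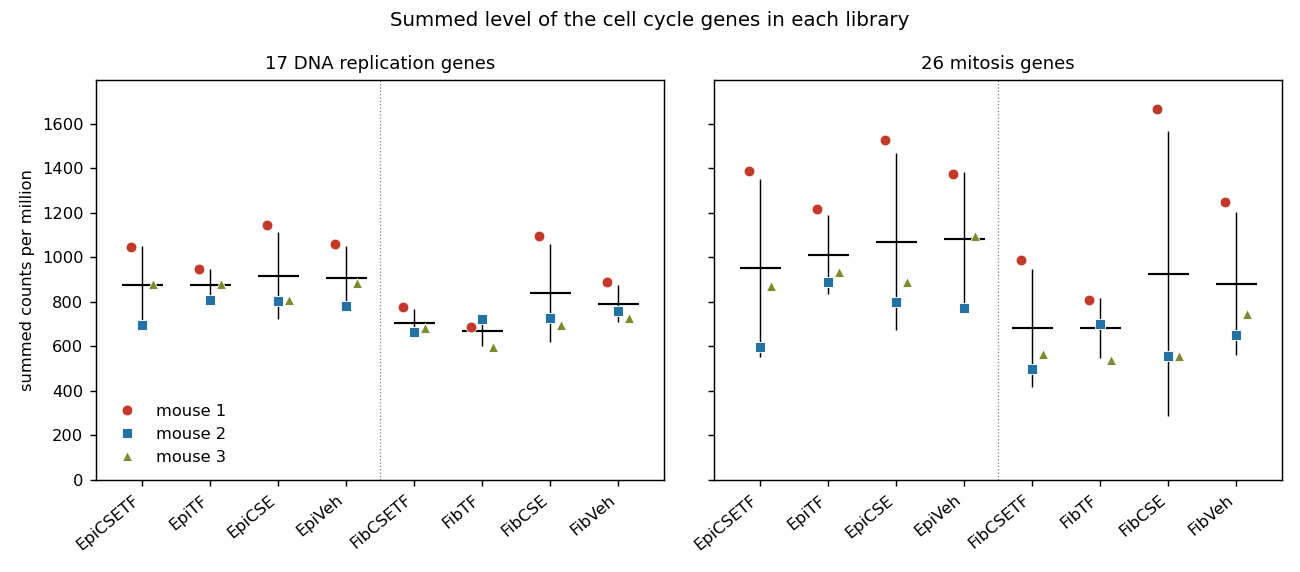
Summed level of the 17 DNA replication genes (left) and the 26 mitosis genes (right) in CPM, in the 8 groups along the horizontal axis. Circles, squares and triangles are the libraries of mouse 1, mouse 2 and mouse 3, the horizontal bar is the group mean and the vertical line 1 SD (n = 3). For the mitosis genes the circle of mouse 1 lies at the top of every group, from 807 CPM in FibTF to 1665 CPM in FibCSE.

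Single genes carried the pattern. Mki67, the proliferation marker that coats mitotic chromosomes, had 133, 52.5 and 78.1 CPM in EpiCSETF, 107, 75.7 and 78.7 in EpiTF, 136, 73.5 and 87.8 in EpiCSE and 116, 65.3 and 98 in EpiVeh. Its Fib values were 84.1, 40.1 and 44.7 CPM in FibCSETF, 72.4, 54.9 and 42.9 in FibTF, 126, 53.2 and 52.1 in FibCSE and 118, 53.5 and 55.4 in FibVeh. Mouse 1 was the highest in each of the 8 groups, and the groups of a fraction overlapped. Top2a had 190.3, 82.5 and 122 CPM in EpiCSETF, 168, 126 and 126 in EpiTF, 215, 117 and 126 in EpiCSE and 198, 115 and 152 in EpiVeh. Fib libraries of Top2a gave 161, 71.1 and 71.4 CPM in FibCSETF, 108, 97.5 and 71.3 in FibTF, 289.6, 87.9 and 80.2 in FibCSE and 174, 96.8 and 102 in FibVeh. The single highest value of Top2a, 289.6 CPM, belonged to FibCSE mouse 1, where it was over 3 times that of the other FibCSE libraries.

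The kinases and cyclins of mitotic entry showed the same order. Cdk1, the kinase that starts mitosis, had 79.2, 37.7 and 53.4 CPM in EpiCSETF, 71.7, 53 and 56.8 in EpiTF, 86.6, 46.8 and 47.4 in EpiCSE and 78.2, 45.6 and 61.7 in EpiVeh. Among Fib libraries Cdk1 had 69.3, 36.6 and 41.8 CPM in FibCSETF, 45.7, 45.5 and 36 in FibTF, 130.1, 37.1 and 35.3 in FibCSE and 65.1, 44.1 and 53.4 in FibVeh. Values of both fractions overlapped, and FibCSE mouse 1 again had the highest of all 24. Its partner Ccnb1, cyclin B1, had 55, 21.3 and 33.1 CPM in EpiCSETF, 47.3, 33.9 and 38.7 in EpiTF, 61, 31.5 and 31.6 in EpiCSE and 52.3, 29.9 and 41 in EpiVeh. Fib values of Ccnb1 were 28.2, 16.1 and 18.8 CPM in FibCSETF, 30.1, 22 and 17.1 in FibTF, 52.6, 17.9 and 20.5 in FibCSE and 45.9, 20.9 and 24.4 in FibVeh. Plk1, a kinase of spindle assembly and centrosome maturation, had 39.4, 17.1 and 24 CPM in EpiCSETF, 31.6, 26.2 and 26.6 in EpiTF, 44.5, 20.8 and 25 in EpiCSE and 36.4, 18.9 and 30.5 in EpiVeh, and 27.9, 12.1 and 15.4 CPM in FibCSETF, 17.6, 18.6 and 11.5 in FibTF, 45.1, 13.8 and 12.7 in FibCSE and 29.8, 13.6 and 17.5 in FibVeh. For Ccnb1 and Plk1 too, mouse 1 was the highest in all groups apart from Plk1 in FibTF, where mouse 2 was.

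DNA replication genes followed the mouse less closely. Mcm2 had 68.2, 51.2 and 66.1 CPM in EpiCSETF, 60.2, 57.7 and 54.2 in EpiTF, 73.9, 54 and 55.9 in EpiCSE and 66.8, 55 and 56.1 in EpiVeh. Fib libraries gave Mcm2 levels of 46.3, 48.7 and 47.2 CPM in FibCSETF, 45.9, 50.1 and 38.4 in FibTF, 63.5, 51.8 and 46.7 in FibCSE and 56.9, 56.4 and 48.4 in FibVeh. Within FibTF and FibCSETF mouse 2 was the highest, not mouse 1. Pcna had 166, 125 and 158 CPM in EpiCSETF, 161, 143 and 164 in EpiTF, 184, 143 and 146 in EpiCSE and 177, 139.9 and 164 in EpiVeh, and 124, 118 and 126 CPM in FibCSETF, 97.6, 118 and 99.1 in FibTF, 162, 118 and 116 in FibCSE and 120.1, 114 and 116 in FibVeh. For Pcna mouse 1 was the highest of 5 groups, mouse 3 of EpiTF and FibCSETF, and mouse 2 of FibTF, where mouse 1 was the lowest. Ccne1, cyclin E1, the partner of Cdk2 at the start of S phase, had 19.5, 14.9 and 18.2 CPM in EpiCSETF, 25.5, 20.5 and 27.4 in EpiTF, 20.2, 18 and 16.4 in EpiCSE and 23.6, 13.4 and 25.6 in EpiVeh, and 17.6, 15.5 and 18.1 CPM in FibCSETF, 22.3, 21.9 and 22.6 in FibTF, 22.2, 16.9 and 18.1 in FibCSE and 20.1, 19.97 and 23.6 in FibVeh, with no mouse highest throughout and with the fractions overlapping.

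**Figure D2:**
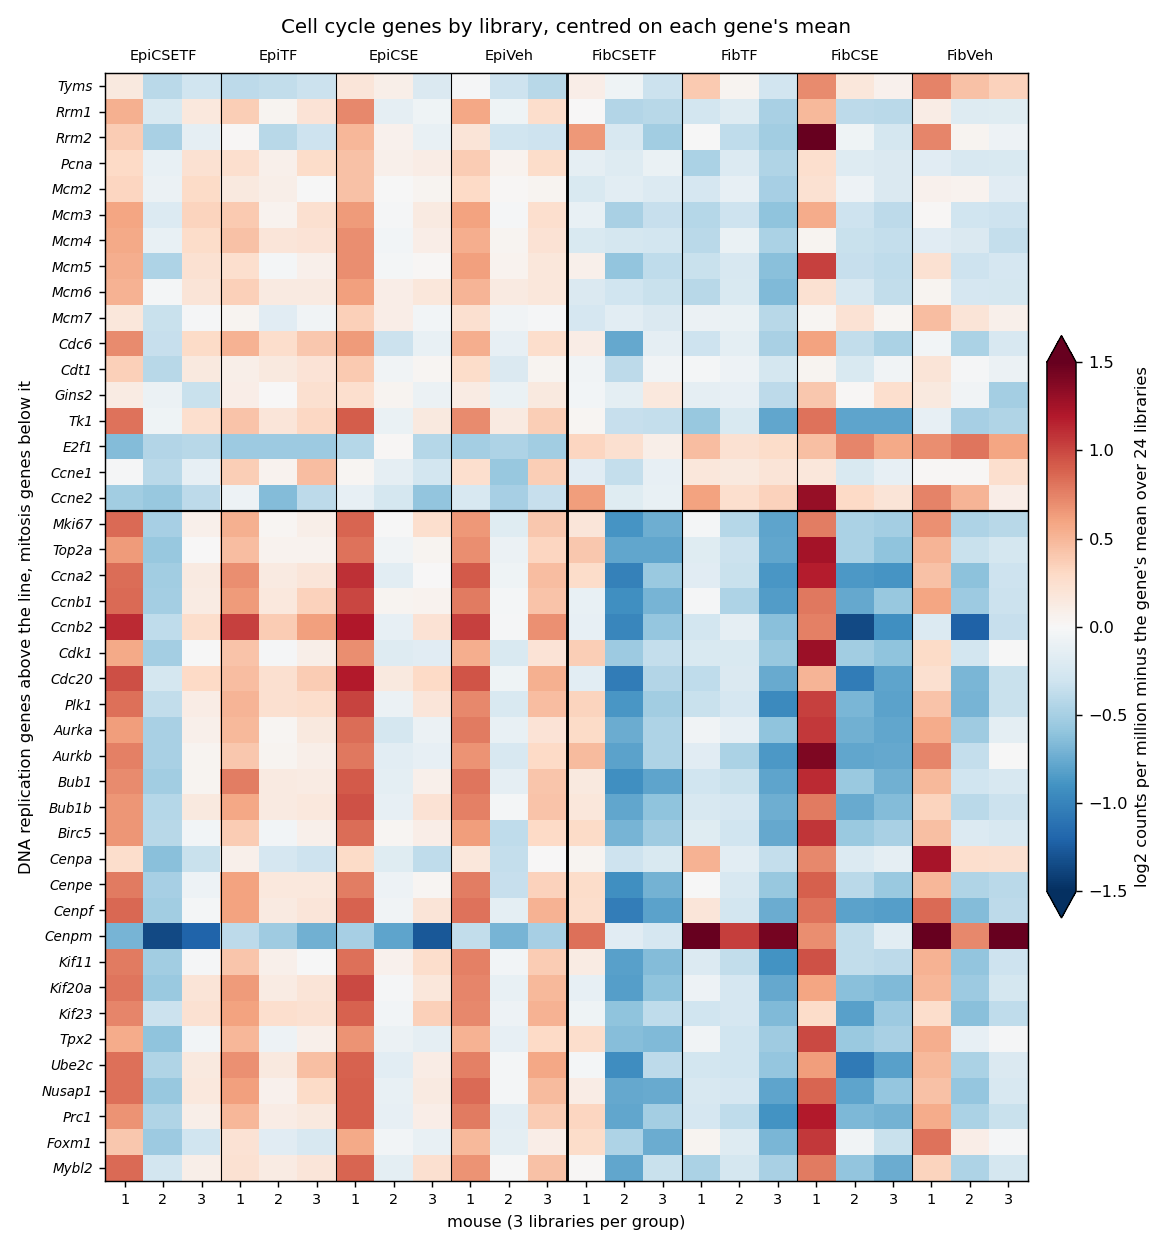
Level of each of the 43 genes (rows) in the 24 libraries (columns, 3 mice per group), as log2 CPM minus the gene's mean over all libraries. Red is above and blue below the gene's own mean, with the DNA replication genes above the black line and the mitosis genes below it. Outside FibTF, columns of mouse 1 are red for most mitosis genes, with FibCSE mouse 1 among the strongest. E2f1, Ccne2 and Cenpm are lower in the Epi than in the Fib library of every culture, and Tyms in most cultures.

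Set against the fibroblast fraction, the epithelial fraction had more RNA of most cell cycle genes and less of a few. Averaged over treatments, 17 of the 43 genes rose and 4 fell in the main test. In it 34.7% of all 19142 genes tested rose and 34.2% fell, 68.9% together, so the share called among the cell cycle genes was not above that of all genes. With the mouse as a block, 31 rose and 5 fell (10 and 3 DNA replication genes, 21 and 2 mitosis genes), where 36.9% of all genes rose and 35.3% fell, 72.2% together. The median log2 fold change was 0.46 for mitosis genes and 0.25 for DNA replication genes, beside 0.03 for all genes. The main count depended on single libraries, since 36 were called without FibCSE mouse 1, 37 without mouse 1 altogether and 12 (8 up, 4 down) without mouse 3. Both tests compare cells sorted by Epcam, and the marker sums above show that Fib libraries held 3430 CPM or more of epithelial markers. What that RNA adds to the Fib values of these genes was not tested.

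The largest rise of a mitosis gene was that of Ccnb2. Ccnb2, cyclin B2, had 44.2, 15.6 and 24.5 CPM in EpiCSETF, 41.4, 26.5 and 31.2 in EpiTF, 47, 18.6 and 23.7 in EpiCSE and 41.3, 20.1 and 32.7 in EpiVeh. In the fibroblast fraction Ccnb2 had 18.7, 10.3 and 13.6 CPM in FibCSETF, 16.8, 18.5 and 13.2 in FibTF, 34.5, 7.95 and 10.8 in FibCSE and 17.6, 8.77 and 16.1 in FibVeh. It was higher in the epithelial library of all 12 cultures, though FibCSE of mouse 1 was above all 8 epithelial libraries of the other mice, and its log2 fold change was 0.96 ± 0.25 (SE; edgeR adjusted p = 0.00205). Cdc20, which turns on the anaphase-promoting complex, had 17.8, 27.1 and 48.8 CPM in the 12 epithelial libraries, against 10.3, 16 and 30.4 CPM in the 12 fibroblast libraries (lowest, median, highest). It was higher in the epithelial library of 12 of 12 cultures, with a log2 fold change of 0.82 ± 0.20 (SE; edgeR adjusted p = 0.00139). Kif23, a kinesin of the central spindle in cell division, rose by 0.66 ± 0.16 (SE; edgeR adjusted p = 0.00112), Ube2c, the ubiquitin-conjugating enzyme of the same complex as Cdc20, by 0.61 ± 0.21 (SE; edgeR adjusted p = 0.0129), and Kif20a, another kinesin of cell division, by 0.58 ± 0.20 (SE; edgeR adjusted p = 0.0139). Ccnb1 rose by 0.59 ± 0.21 (SE; edgeR adjusted p = 0.0194). Bub1b, a spindle checkpoint kinase, Nusap1, which bundles spindle microtubules, and Mybl2 also rose, by 0.53 ± 0.20, 0.55 ± 0.22 and 0.50 ± 0.18 on the log2 scale.

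Most other mitosis genes were called only with the mouse term. Mki67, Top2a, Ccna2, Plk1, Aurka, Bub1, Birc5, Cenpe, Cenpf, Kif11, Tpx2 and Prc1 rose in the blocked test alone, with log2 fold changes from 0.23 (Tpx2) to 0.57 (Ccna2). For Plk1 the main value was 0.53 ± 0.23 (SE; edgeR adjusted p = 0.0521) and the blocked value 0.57 ± 0.14 (SE; edgeR adjusted p = 0.00129). Cdk1 and Aurkb were called in neither test, with blocked values of 0.19 ± 0.13 (SE; edgeR adjusted p = 0.194) and 0.30 ± 0.14 (SE; edgeR adjusted p = 0.0638). Foxm1, the transcription factor of the mitotic wave, had 16, 22.3 and 34.7 CPM in the 12 epithelial libraries, against 14, 22.9 and 48.8 CPM in the 12 fibroblast libraries (lowest, median, highest). Its fold change was near 0 and changed sign between the tests, with -0.02 ± 0.18 (SE; edgeR adjusted p = 0.927) in the main test and 0.01 ± 0.08 (SE; edgeR adjusted p = 0.881) with the block.

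Among DNA replication genes, 4 of the 6 helicase subunits rose. Mcm6 had 114, 77.4 and 90.6 CPM in EpiCSETF, 101, 87 and 87.1 in EpiTF, 121, 84.7 and 88.9 in EpiCSE and 113, 86.4 and 88.8 in EpiVeh. Fib values of Mcm6 were 67.7, 64.1 and 62.6 CPM in FibCSETF, 59.4, 67.6 and 50.1 in FibTF, 92.3, 66.8 and 61.1 in FibCSE and 81.5, 66.3 and 65.9 in FibVeh. All epithelial libraries were above 10 of the 12 Fib libraries for it, the exceptions being FibVeh and FibCSE of mouse 1, and its log2 fold change was 0.49 ± 0.09 (SE; edgeR adjusted p = 5.11e-05). Mcm4 rose by 0.52 ± 0.09 (SE; edgeR adjusted p = 4.64e-05), Mcm3 by 0.49 ± 0.12 (SE; edgeR adjusted p = 0.00150) and Mcm2 by 0.25 ± 0.07 (SE; edgeR adjusted p = 0.00298). Mcm5 reached 0.31 ± 0.17 (SE; edgeR adjusted p = 0.100) and was called with the block, at 0.32 ± 0.10 (SE; edgeR adjusted p = 0.00866). Mcm7, which shares exon bases with 4 other annotated genes, did not pass in either test, at 0.02 ± 0.06 (SE; edgeR adjusted p = 0.754). It was higher in the epithelial library of 5 of 12 cultures.

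Genes around the helicase rose as well. Tk1, thymidine kinase, which recycles thymidine for DNA synthesis, had 25.1, 32.6 and 50.2 CPM in the 12 epithelial libraries, against 15.4, 20.3 and 47.2 CPM in the 12 fibroblast libraries (lowest, median, highest). It was higher in the epithelial library of 12 of 12 cultures and rose by 0.63 ± 0.18 (SE; edgeR adjusted p = 0.00381), the largest rise of the DNA replication genes. Pcna rose by 0.37 ± 0.07 (SE; edgeR adjusted p = 4.47e-05), Rrm1 by 0.38 ± 0.13 (SE; edgeR adjusted p = 0.0132), and Cdc6, which loads the helicase on origins, by 0.44 ± 0.16 (SE; edgeR adjusted p = 0.0185). Cdt1, its partner in loading, reached 0.15 ± 0.06 (SE; edgeR adjusted p = 0.03) with the block and was not called without it. Gins2 of the replicative helicase complex and Ccne1 were close to 0, at 0.05 ± 0.08 (SE; edgeR adjusted p = 0.584) and 0.00 ± 0.09 (SE; edgeR adjusted p = 0.977).

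In the main test 3 DNA replication genes and 1 mitosis gene went the other way. E2f1, an activator of the S-phase wave, had 17.4, 20.2 and 20.4 CPM in EpiCSETF, 18.8, 18.8 and 18.8 in EpiTF, 20.4, 27.8 and 20.4 in EpiCSE and 19.3, 19.9 and 19 in EpiVeh. E2f1 in Fib libraries had 34.2, 32.2 and 29 CPM in FibCSETF, 37.8, 32.1 and 33 in FibTF, 37.5, 45.4 and 40.5 in FibCSE and 44.2, 47.6 and 41.3 in FibVeh. The highest epithelial library was below the lowest fibroblast library, and the log2 fold change was -0.92 ± 0.06 (SE; edgeR adjusted p = 1.26e-10). Ccne2, cyclin E2, had 6.97, 8.30 and 10.3 CPM in the 12 epithelial libraries, against 9.65, 13.7 and 27.1 CPM in the 12 fibroblast libraries (lowest, median, highest), was lower in the epithelial library of all 12 cultures and fell by 0.83 ± 0.13 on the log2 scale (SE; edgeR adjusted p = 1.75e-05). Cenpm, a protein of the inner kinetochore, had the largest difference of all 43 genes, at -1.57 ± 0.17 (SE; edgeR adjusted p = 1.63e-07), with 4.64, 7.35 and 9.24 CPM in the 12 epithelial libraries, against 9.23, 20.3 and 43.8 CPM in the 12 fibroblast libraries (lowest, median, highest). Tyms, thymidylate synthase, had 18.9, 12.9 and 13.9 CPM in EpiCSETF, 13, 13.2 and 13.6 in EpiTF, 19.4, 18.2 and 14.7 in EpiCSE and 16.9, 13.8 and 12.8 in EpiVeh, and 18.3, 16.3 and 13.7 CPM in FibCSETF, 22.4, 17.6 and 14 in FibTF, 27.9, 19.2 and 17.8 in FibCSE and 28.7, 23.2 and 21.8 in FibVeh. The fractions overlapped for Tyms, and its log2 fold change was -0.41 ± 0.10 (SE; edgeR adjusted p = 0.00106). Rrm2, the small subunit of ribonucleotide reductase, was at -0.25 ± 0.20 (SE; edgeR adjusted p = 0.283) and not called, although its partner Rrm1 was. Cenpa, the histone H3 variant that marks centromeres, fell only with the block, at -0.29 ± 0.07 (SE; edgeR adjusted p = 0.00162).

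**Figure D3:**
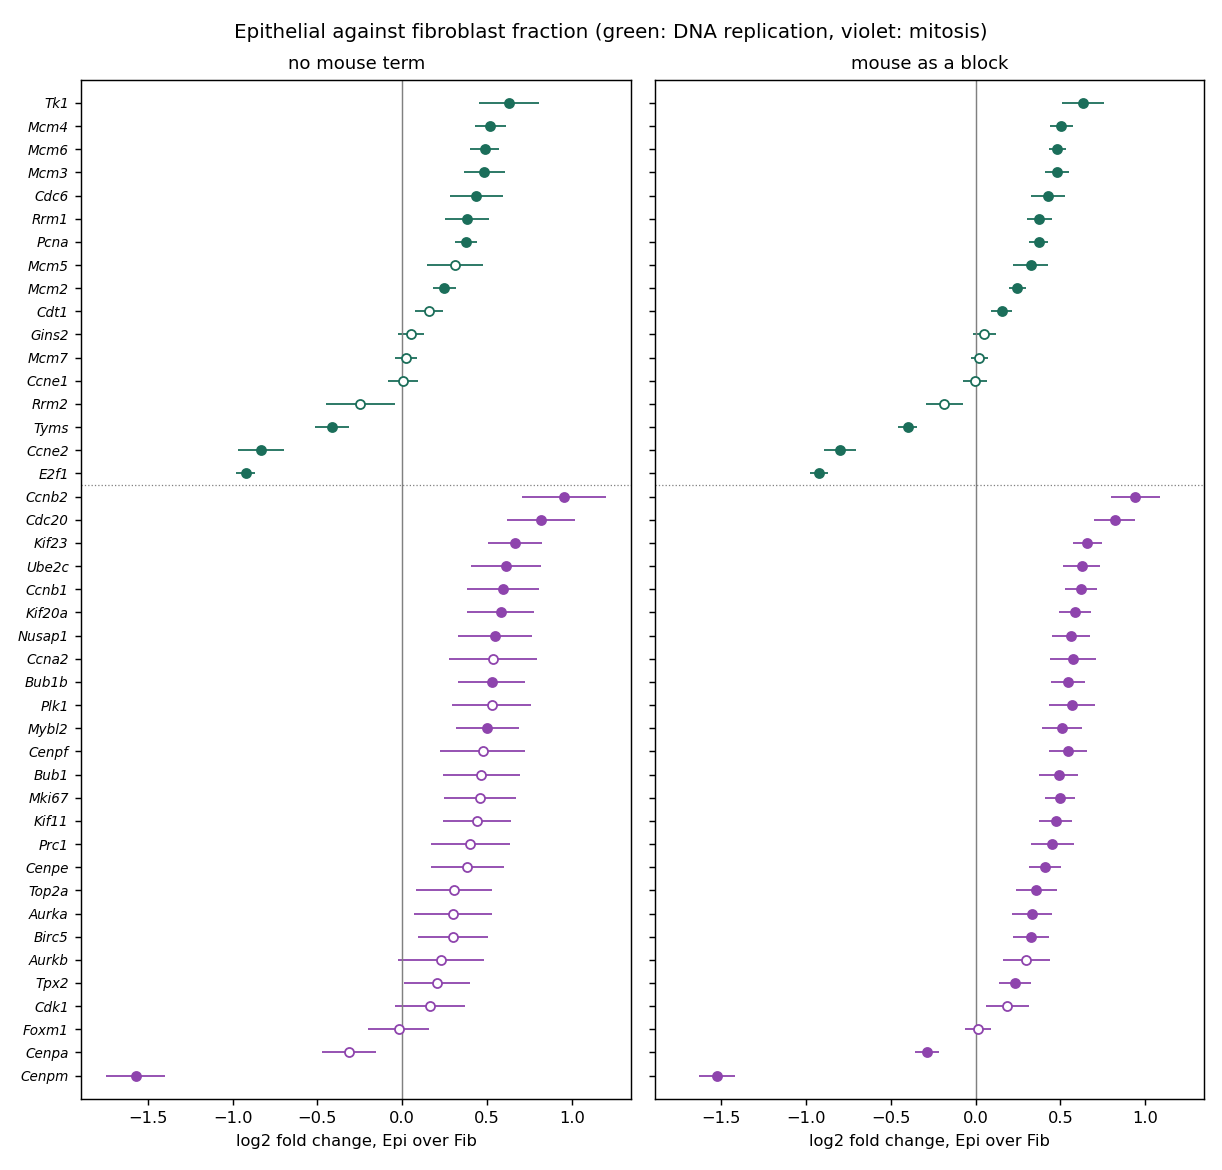
Log2 fold change of each gene in the epithelial over the fibroblast fraction, averaged over treatments, without a mouse term (left) and with the mouse as a block (right), where bars are 1 SE. Filled points passed an adjusted p under 0.05, green points are DNA replication genes and violet points mitosis genes. Most points lie to the right of 0, from Ccnb2 at 0.96 downward, and E2f1, Ccne2, Tyms and Cenpm lie to the left in both panels.

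Within single treatments fewer genes were called between the fractions. In CSETF 3 rose and 2 fell (13.8% and 19% of all genes), in TF 5 rose and 3 fell (20.7% and 23.5%), in CSE 1 rose and 3 fell (17.7% and 20.4%), and in Veh 3 rose and 4 fell (25.3% and 25.1%). With the block these counts were 16 and 3 in CSETF, 24 and 4 in TF, 8 and 4 in CSE, and 15 and 5 in Veh, beside 18.3% and 21.4%, 25.5% and 25.6%, 21.5% and 22.8%, and 28.7% and 27.1% of all genes. E2f1 and Cenpm were lower in the epithelial fraction under each of the 4 treatments. These counts moved with single libraries. Without FibCSE mouse 1 they were 8 in CSETF, 13 in TF, 15 in CSE and 11 in Veh, and without mouse 1 altogether 3, 19, 14 and 20. Without mouse 3 they were 1, 2, 2 and 4. CSETF also went to 1 without FibCSETF mouse 1, to 2 without EpiCSETF mouse 1 or 3, and to 3 without FibCSETF mouse 2 or 3, FibTF mouse 1, EpiTF mouse 1 or 3, or mouse 2. TF went to 4 without FibTF mouse 1 and to 5 without FibTF mouse 3 or EpiTF mouse 1 or 3, and Veh to 4 without EpiVeh mouse 1 or mouse 2. In the cultures themselves, the epithelial library was the higher for between 29 and 39 of the 43 genes in 11 of 12 cultures, and for 21 in the CSE culture of mouse 1.

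Tanimilast with formoterol was set against vehicle to ask whether the drugs changed these genes, and in the fibroblast fraction most values were lower with the drugs. Averaged over CSE, 42 of 43 log2 fold changes were below 0 in the main test, where 48.8% of all genes were above 0. Medians were -0.41 for mitosis genes and -0.23 for DNA replication genes, beside -0.00456 for all genes. With the block 41 of 43 were below 0, with medians of -0.30 for mitosis genes and -0.22 for DNA replication genes. All 43 genes were read in the same 12 libraries, so their signs are not independent. In pairs of the same mouse and CSE treatment, mitosis genes were lower with the drugs in a median of 4 of 6. For DNA replication genes the median was 5 of 6. Of the genes followed across fits, Cdk1, Plk1 and Ccne1 turned to 0.046, 0.064 and 0.019 without FibCSE mouse 1, and the rest stayed below 0. None of the 43 was called by edgeR without the mouse term, where 0.0602% of all genes rose and 0.0492% fell and 4 of the 43 had an unadjusted p under 0.05, while DESeq2 called Mcm7 and E2f1 lower. That edgeR test called 0.109% of all 18287 genes in either direction. With the mouse as a block 5 fell and 0 rose, beside 0.935% of all genes that fell and 1.6% that rose, 2.54% together. They were Tyms, E2f1 and Mcm7 among the DNA replication genes and Foxm1 and Cenpa among the mitosis genes. The block with mouse 1 left out also called 5, with Rrm2 in the place of Cenpa.

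The 5 called genes were lower in the cultures of all 3 mice, which held a single fibroblast line. Tyms, whose values by library stand above, averaged 17.1 CPM with the drugs and 23.1 CPM without, a log2 fold change of -0.44 ± 0.07 (SE; edgeR adjusted p = 0.0201) with the block and -0.44 ± 0.15 (SE; edgeR adjusted p = 0.216) without it. E2f1 averaged 33 CPM with the drugs and 42.7 CPM without, at -0.37 ± 0.07 (SE; edgeR adjusted p = 0.0287) with the block and -0.37 ± 0.07 (SE; edgeR adjusted p = 0.0898) without it. For both, the library with the drugs was the lower in 6 of 6 pairs of the same mouse and CSE treatment. Mcm7 had 66.4, 71.1 and 68.2 CPM in FibCSETF, 74.7, 73.8 and 59.6 in FibTF, 81.3, 92.2 and 81.2 in FibCSE and 109, 90.5 and 83.6 in FibVeh. All 6 libraries with the drugs were below the 6 without, and the blocked value was -0.38 ± 0.07 (SE; edgeR adjusted p = 0.0308) beside a main value of -0.38 ± 0.08 (SE; edgeR adjusted p = 0.104). Without FibCSE mouse 1, or without mouse 1 as a whole, the main test called E2f1 alone.

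Foxm1 had 28.3, 17 and 14 CPM in FibCSETF, 24.2, 20.5 and 14.6 in FibTF, 48.8, 22.6 and 18.6 in FibCSE and 41.3, 25.1 and 23.2 in FibVeh. It was lower with the drugs in 6 of 6 pairs, the largest fall of the mitosis genes at -0.56 ± 0.10 (SE; edgeR adjusted p = 0.0308) with the block and -0.60 ± 0.28 (SE; edgeR adjusted p = 0.351) without it. Cenpa had 28.9, 22.7 and 23.9 CPM in FibCSETF, 40.4, 25.2 and 21.9 in FibTF, 46.2, 24.3 and 25.7 in FibCSE and 66.5, 33.4 and 33.2 in FibVeh, was lower in 6 of 6 pairs and reached -0.43 ± 0.09 (SE; edgeR adjusted p = 0.0450) with the block and -0.48 ± 0.24 (SE; edgeR adjusted p = 0.389) without it. Both sets of libraries overlapped for these 2 genes. Rrm2 had 45.9, 24.8 and 20.6 CPM in FibCSETF, 29.3, 22.5 and 20.4 in FibTF, 86.5, 28.2 and 24.5 in FibCSE and 49, 30.2 and 27.8 in FibVeh. Its blocked log2 fold change was -0.51 ± 0.16 (SE; edgeR adjusted p = 0.116), with FibCSE mouse 1 more than 3 times the other FibCSE libraries. Mki67 had 40.1, 49.8 and 84.1 CPM as lowest, median and highest with the drugs, against 52.1, 54.5 and 126 CPM without, and a blocked value of -0.37 ± 0.10 (SE; edgeR adjusted p = 0.0811). Ccne1 was the nearest of the 43 to 0, at -0.04 ± 0.07 (SE; edgeR adjusted p = 0.799), and Ccnb2 and Cenpm were above 0 at 0.06 ± 0.27 (SE; edgeR adjusted p = 0.932) and 0.08 ± 0.11 (SE; edgeR adjusted p = 0.743).

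Cell type marker levels differed with the drugs in the same libraries. The median log2 fold change was 0.41 for the 16 epithelial markers and -0.37 for the 14 fibroblast markers tested, with 0 of either list called, and the summed fibroblast markers averaged 4029 CPM in FibCSETF, 4511 CPM in FibTF, 5936 CPM in FibCSE and 5648 CPM in FibVeh, and the summed epithelial markers 5728, 5348, 3875 and 4208 CPM in the same order. Of the 5 called genes, Tyms, E2f1 and Cenpa were also lower in the epithelial than in the fibroblast fraction. With the marker level as a covariate in place of the block, 0 of the 43 were called, the main values became -0.30 for E2f1, -0.37 for Mcm7, -0.18 for Tyms, -0.13 for Cenpa and -0.08 for Foxm1, and those of Rrm2, Mki67, Top2a, Ccnb1, Cdk1 and Plk1 turned to between 0.02 and 0.20. With the block and the covariate together 0 were called among the 43 and 0 among all genes, and the values were -0.29 for E2f1, -0.56 for Mcm7, -0.49 for Tyms, -0.67 for Cenpa and -0.59 for Foxm1. The part of the markers in these falls was not tested beyond these fits.

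Taken apart by CSE treatment, the drugs called none of the 43 in the fibroblast fraction. CSETF against CSE had 2 genes with an unadjusted p under 0.05 in edgeR (10 with the block), and TF against Veh had 2 (9 with the block), with 0 called by DESeq2 in either. These 2 comparisons called 0.0109% and 0.00547% of all genes. E2f1 had a blocked log2 fold change of -0.38 ± 0.09 for CSETF against CSE and -0.37 ± 0.09 for TF against Veh (SE), and the test of the interaction called 0 genes of the list, with 0 at an unadjusted p under 0.05 and 0 by DESeq2.

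**Figure D4:**
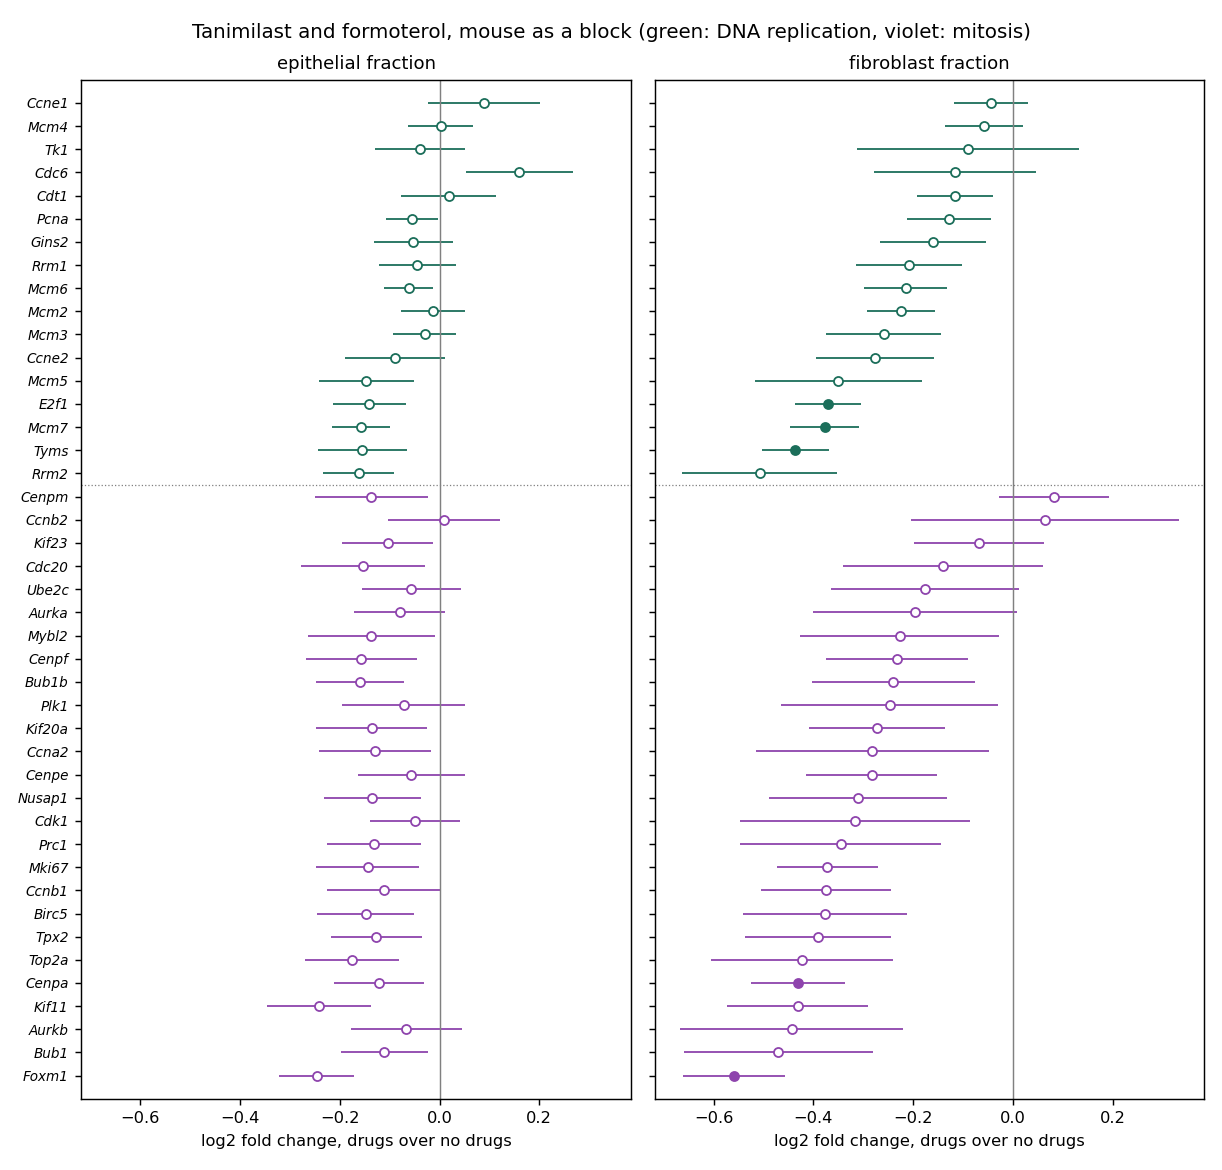
Log2 fold change with tanimilast and formoterol, averaged over CSE and with the mouse as a block, in the epithelial (left) and the fibroblast fraction (right), where bars are 1 SE. Filled points passed an adjusted p under 0.05, green points are DNA replication genes and violet points mitosis genes. Tyms, E2f1, Mcm7, Foxm1 and Cenpa are filled in the fibroblast panel, where Foxm1 lies lowest at -0.56, and no point is filled in the epithelial panel.

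In the epithelial fraction the drugs called none of the 43 genes with or without the block, nor did DESeq2. The background was 0.00554% of 18038 genes without the block and 0.205% with it, of which 0.155% were higher and 0.0499% lower. In the main test 40 of 43 values were below 0, all 26 mitosis genes among them, with a median of -0.11 and 0 at an unadjusted p under 0.05 (4 with the block). Foxm1 had 31, 16 and 19.1 CPM in EpiCSETF, 27.4, 20.8 and 19.9 in EpiTF, 34.7, 22.8 and 21.7 in EpiCSE and 32.8, 21.1 and 25.2 in EpiVeh. It was lower with the drugs in 6 of 6 pairs, with a blocked log2 fold change of -0.25 ± 0.08 (SE; edgeR adjusted p = 0.229). Rrm2 had 38.3, 21 and 26.8 CPM in EpiCSETF, 29.8, 22 and 23.8 in EpiTF, 41.4, 30.6 and 27.3 in EpiCSE and 33.7, 24 and 23.7 in EpiVeh, and a blocked value of -0.16 ± 0.07 (SE; edgeR adjusted p = 0.382). Mcm7 reached -0.16 ± 0.06 (SE; edgeR adjusted p = 0.305), and Cdc6 was the highest at 0.16 ± 0.11 (SE; edgeR adjusted p = 0.581). Fibroblast markers had a median of -0.59 in this comparison with 0 of 14 called, and their part was not tested. The difference of the drug effect between the fractions called 0 of the 43 (0 at an unadjusted p under 0.05, 2 with the block, 0 by DESeq2), so the fractions were not shown to differ in their response.

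CSE was set against vehicle to ask whether the earlier exposure of the cultures left a mark 14 days after it ended. The CCL206 fibroblasts were new after the CSE phase, so those cells had not received CSE themselves. Among the cell cycle genes 1 fell in the fibroblast fraction. That gene was Cenpm, averaged over the drugs, where 2.18% of all 18287 genes fell and 1.83% rose, so the count for the list was near the background. Cenpm had 21, 10.6 and 9.98 CPM in FibCSETF, 43.8, 24.4 and 32.3 in FibTF, 19.4, 9.23 and 10.7 in FibCSE and 41.7, 19.6 and 34.5 in FibVeh. In the cultures of each mouse both CSE libraries were below both libraries without CSE, and the log2 fold change was -1.26 ± 0.28 (SE; edgeR adjusted p = 0.0394), with -1.29 ± 0.11 (SE; edgeR adjusted p = 0.00116) with the block. FibCSE against FibVeh alone gave -1.26 ± 0.40 (SE; edgeR adjusted p = 0.222), and with the block -1.28 ± 0.16 (SE; edgeR adjusted p = 0.0123). For FibCSE against FibVeh the main edgeR test called 0 of the 43 genes, with 2 at an unadjusted p under 0.05 (Cenpm and Gins2), where it called 0.104% of all genes. Cenpm alone was called there by the blocked test, which called 0.678% of all genes, and by DESeq2. The main call averaged over the drugs was lost without any of 8 single libraries (FibVeh, FibTF of mice 1 and 3, FibCSE and FibCSETF of mice 2 and 3), without mouse 2, without mouse 3, and without the filter on low counts, and the log2 fold change then lay between -1.32 and -1.08. With the block it remained called when mouse 1 was left out, at -1.40 (edgeR adjusted p = 0.0069), or the marker covariate added, at -1.26 (edgeR adjusted p = 0.00197).

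Cell type markers differed little with CSE in the fibroblast fraction. The median log2 fold change in this comparison was 0.08 for epithelial and -0.03 for fibroblast markers, with 1 of 16 epithelial markers called higher and 1 of 14 fibroblast markers called lower. In the epithelial fraction Cenpm had 7.34, 4.64 and 5.19 CPM in EpiCSETF, 9.05, 8.19 and 7.23 in EpiTF, 8.41, 6.90 and 4.93 in EpiCSE and 9.24, 7.37 and 8.41 in EpiVeh. The library with CSE was the lower in 6 of 6 pairs there too, but the difference was not called, at -0.41 ± 0.16 (SE; edgeR adjusted p = 0.547) and -0.43 ± 0.11 (SE; edgeR adjusted p = 0.107) with the block. The test of the difference between the fractions gave 0.86 ± 0.21 (SE; edgeR adjusted p = 0.154) with the block and was not called. Fibroblast markers had a median of 0.47 with CSE in the epithelial fraction, with 0 of 14 called, and their part there was not tested.

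**Figure D5:**
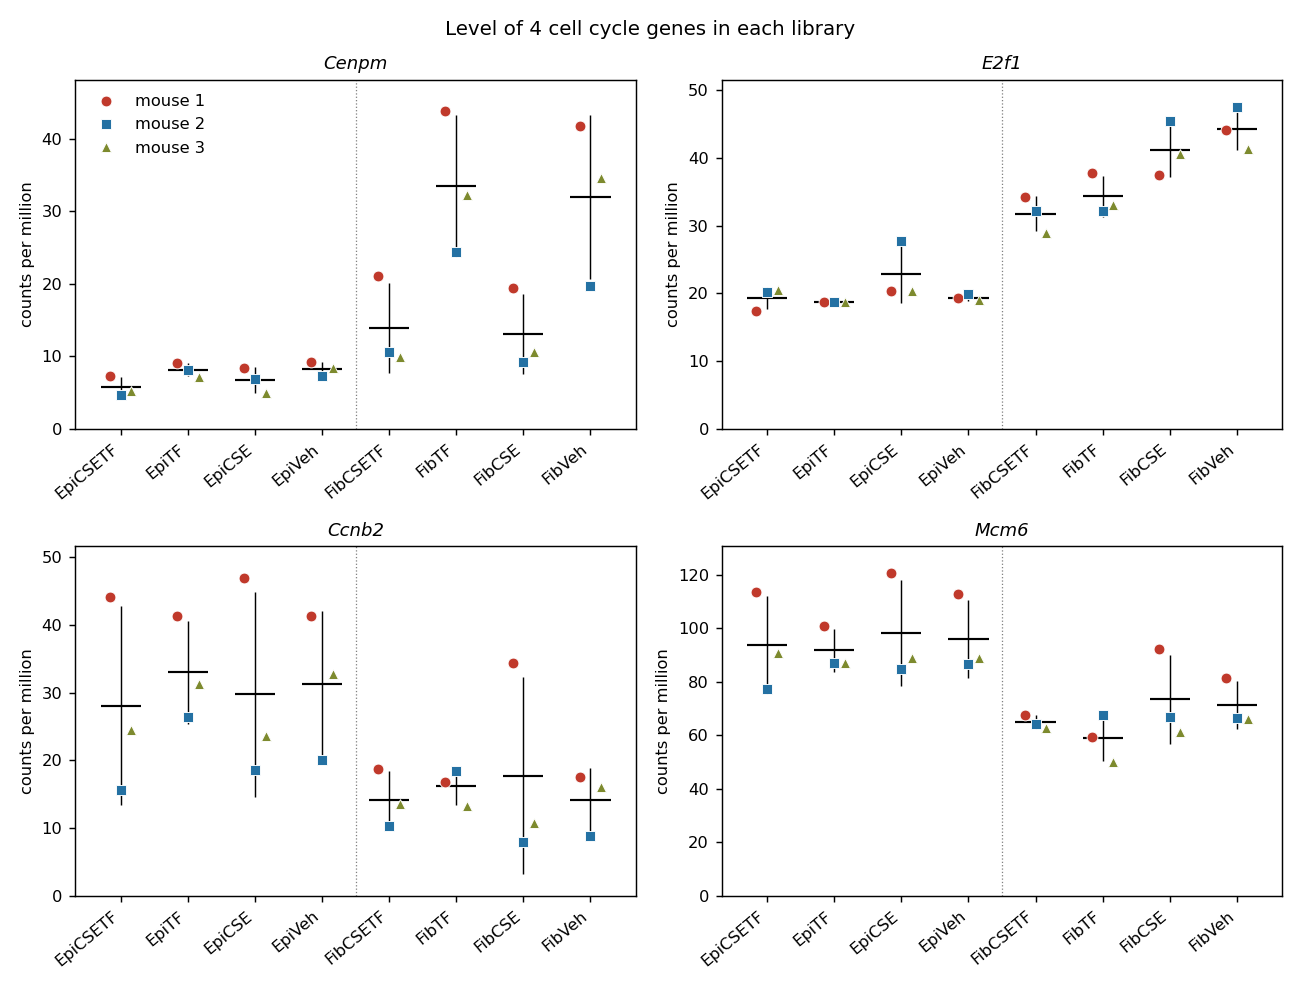
Level of Cenpm, E2f1, Ccnb2 and Mcm6 in CPM by group, with circles, squares and triangles for mouse 1, mouse 2 and mouse 3, a bar for the group mean and a line for 1 SD (n = 3). Cenpm in the fibroblast fraction lies between 9.23 and 21.0 CPM in the CSE groups, against 19.6 to 43.8 CPM in the groups without CSE. E2f1 is at most 27.8 CPM in epithelial and at least 29.0 CPM in fibroblast libraries, while Ccnb2 and Mcm6 are higher in Epi.

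The other 42 genes did not pass in the CSE comparison of the fibroblast fraction. Their log2 fold changes ran from -0.32 for Cenpa to 0.38 for Rrm2 in the main test. Of all 43 genes, 31 were above 0 in the main test, beside 54.4% of all genes. With the block 20 of the 43 were above 0, beside 53.2% of all genes. Ccne1 had the next smallest p, at -0.25 ± 0.09 (SE; edgeR adjusted p = 0.128), and was called beside Cenpm without FibCSE mouse 1, as Tpx2 was without mouse 1 altogether. Gins2 and Pcna were above 0 in the cultures of all 3 mice, at 0.30 ± 0.12 (SE; edgeR adjusted p = 0.175) and 0.22 ± 0.09 (SE; edgeR adjusted p = 0.171). The largest main value, that of Rrm2, came with 20.6, 26.5 and 86.5 CPM as lowest, median and highest in the 6 CSE libraries, against 20.4, 28.5 and 49 CPM in the 6 without, and was 0.25 with the block. When mouse 1 was left out of the blocked test, Cenpm, Ccne1 and Tpx2, a spindle assembly factor, were called lower.

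In the epithelial fraction CSE called none of the 43 genes in edgeR with or without the block or in DESeq2, beside 0.00554% of all genes without the block and 1% with it, of which 0.432% were higher and 0.571% lower. An unadjusted p under 0.05 was seen for 1 gene, Cenpm, and for 4 with the block. Rrm2 and Tyms, both of nucleotide supply, were above 0 in all 3 mice, at 0.23 ± 0.07 (SE; edgeR adjusted p = 0.162) and 0.23 ± 0.09 (SE; edgeR adjusted p = 0.252) with the block, and Ccne1 was below 0 at -0.32 ± 0.11 (SE; edgeR adjusted p = 0.208). Ccnb2 and Ube2c, at -0.23 ± 0.11 (SE; edgeR adjusted p = 0.353) and -0.20 ± 0.10 (SE; edgeR adjusted p = 0.358), were called lower when mouse 1 was left out of the blocked test. EpiCSE against EpiVeh alone called 0, with 0 at an unadjusted p under 0.05 (1 with the block) and 0 by DESeq2, and called 0% of all genes. The interaction of CSE and drugs called 0 in both fractions, with 0 at an unadjusted p under 0.05.

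A further 7 lists of cell cycle regulators, 163 genes in all, were set beside the 43. Between the fractions 54 rose and 24 fell, 33.1% and 14.7% of the 163, where 34.7% of all genes rose and 34.2% fell. With the block 85 rose and 26 fell, 52.1% and 16% of the 163, beside 36.9% and 35.3% of all genes. The share that rose in the main test was thus near that of all genes, and the counts by list below have the same background. Of 12 G1 cyclins and kinases 4 rose and 5 fell, with cyclin D2 (Ccnd2) up by 0.51 ± 0.07 and cyclin D3 (Ccnd3) down at -0.63 ± 0.04 on the log2 scale. Of 7 inhibitors of cyclin-dependent kinases 2 rose and 3 fell, Cdkn2b up at 1.24 ± 0.14, Cdkn2d down at -0.90 ± 0.08 and Cdkn1a down at -0.44 ± 0.05. Rb1, the retinoblastoma protein that holds E2F in check, fell at -0.61 ± 0.05, among 9 rises and 2 falls of 18 pocket, E2F and MuvB genes. The origin and replisome list had 21 rises and 8 falls of 48, with Chaf1b up at 0.76 ± 0.09 and Gins3 down at -0.95 ± 0.07. Kinetochore and spindle genes had 8 rises and 3 falls of 41 (23 and 4 with the block), with Zwint down at -0.73 ± 0.06 and Cenpt at -0.55 ± 0.07. Condensin and chromosome structure genes had 3 rises and 1 fall of 14, with Hmgb3 up at 1.00 ± 0.08 and Lmnb1 at 0.94 ± 0.10. The anaphase and cytokinesis list had 7 rises and 2 falls of 23, with Wee1, the kinase that holds Cdk1 inactive, up at 0.80 ± 0.07 (SE throughout; all with edgeR adjusted p under 0.05).

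Treatment called few of these 163 genes. With the drugs in the fibroblast fraction 0 were called in the main test, where 0.0492% of all genes fell, and 7 fell with the block, 4.29% of the 163 beside 0.935% of all genes. These were 3 of the origin and replisome list and 4 of the kinetochore and spindle list. They included Pola1 and Rpa1 of the replisome, the chromatin assembly factor Chaf1a, the kinetochore genes Cenpi and Casc5 (now Knl1) and the spindle gene Ckap2. Their blocked log2 fold changes ran from -0.58 ± 0.11 for Cenpi to -0.37 ± 0.06 for Rpa1 (SE). In the fibroblast fraction of cultures that had CSE before, Cdkn1c, an inhibitor of cyclin-dependent kinases, fell at -0.60 ± 0.13 (SE; edgeR adjusted p = 0.0277) and Rb1 at -0.26 ± 0.06 (SE; edgeR adjusted p = 0.042). These 2 falls were 1.23% of the 163, beside 2.18% of all genes. With the block 2 rose, Cdkn2a at 0.71 ± 0.16 and Rbl2 at 0.19 ± 0.05, and 5 fell, with Cdk6 at -0.47 ± 0.11 and Cks2 at -0.26 ± 0.06 beside Cdkn1c, Rb1 and Cdkn1a. Those 1.23% up and 3.07% down were below the 4.8% and 3.89% of all genes, so the CSE calls of these lists did not exceed the background. In the epithelial fraction CSE called Cdkn2a higher at 0.44 ± 0.07 (SE; edgeR adjusted p = 0.0337) and Cdkn1c lower at -0.52 ± 0.10 (SE; edgeR adjusted p = 0.0497), both with the block only. Each was 0.613% of the 163, near the 0.432% of all genes that rose and the 0.571% that fell.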

How the data were processed

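Poly-A RNA of 24 libraries (8 groups of 3) was counted per gene. The values used are the authors' deposited whole-number counts, not normalised, per the file headers and values. Per the submitters' processing notes, Trimmomatic 0.30 trimmed the reads and DESeq2 was named. No source used here names the aligner, the counter or the use of strand, so the 13 members that share exon bases with another gene in GENCODE M21, such as Mcm7, Top2a and Foxm1, and the 4 with pseudogenes named after them (Tyms, Pcna, Ccnb1, Ccnb2) can share reads. Coding lengths are also from GENCODE M21. Per the labels' protocols the reference had the name of a human assembly, so promoter coordinates come from RefSeq alone.

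Tests on counts used edgeR 4.0.16 under R 4.3.3 (TMM, its filter by group, robust quasi-likelihood) over the whole table, each fraction over its 12 libraries and the fractions over all 24, and were checked on simulated data. The simulated counts held no difference between mice and changes larger than most of those above. That check does not cover smaller changes or genes that vary by mouse. DESeq2 1.42.0 was an alternative. The labels give the mouse as the batch, so libraries of the same number share an animal. Deviations from group means correlated at a median of 0.196 (Epi) and 0.126 (Fib) for the same mouse, against -0.083 and -0.077 for different mice. Taking deviations from a mean of 3 itself pulls the values for different mice down. The ranges overlapped, with same-mouse values down to -0.0088 (Epi) and -0.0092 (Fib) and those of different mice up to 0.229 and 0.129. Without the block, p-values treat libraries of the same mouse as independent. With it, they leave out the average difference between mice, so neither is a measure of the spread between the 3 mice. For Fib libraries the mouse is the donor of the epithelium cultured beside the CCL206 line. One CPM stood for at least 31.8 counts. Members and lists were chosen with earlier results of these data known. Named genes were a set of 13, those with the smallest p per comparison, the extremes and sign exceptions of each role, and up to 3 called genes per further list.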

Additional observations from a re-analysis of the deposited data

How the results depend on the processing

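Of the single log2 fold changes that turned, those of the fibroblast drug comparison did so with the marker covariate (Rrm2 0.10, Mki67 0.079, Top2a 0.15, Ccnb1 0.02, Cdk1 0.15, Plk1 0.20) and with the block and mouse 1 left out (Pcna 0.00083, Ccne1 0.0021, Plk1 0.019). With single libraries or mice left out, values ran from -0.093 to 0.019 for Ccne1, -0.58 to 0.064 for Plk1, -0.58 to 0.046 for Cdk1 and -0.22 to 0.0012 for Pcna. Between the fractions Ccne1 turned to -0.010 with DESeq2, -0.014 with RLE scaling, -0.044 with library totals, -0.0046 with the block, -0.010 with the block by culture and -0.040 with the block and mouse 1 left out. Foxm1 turned to 0.014, 0.017 and 0.11 in these 3 blocked fits and Rrm2 to 0.0018 in the last. With libraries or mice left out Ccne1 ran from -0.049 to 0.057 and Foxm1 from -0.13 to 0.12.

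Between the fractions 36 genes were called with the block, 38 with the block by culture and 37 with the block and mouse 1 left out, in place of 21. Within treatments the block called 19 in CSETF, 28 in TF, 12 in CSE and 20 in Veh, and the absence of a filter 3 in CSETF and 2 in CSE. For the drugs in the fibroblast fraction DESeq2 called 2, the block 5 and the block without mouse 1 5. For CSE in it, averaged over drugs, 0 were called without the filter, 3 with the block and mouse 1 left out and 2 with the block and the marker covariate. FibCSE against FibVeh had 1 with DESeq2 and 1 with the block, and CSE in the epithelial fraction 2 with the block and mouse 1 left out. The replicate block changed no other count of calls. With single libraries or mice left out, counts ran from 12 to 37 averaged over treatments, 1 to 8 in CSETF, 2 to 19 in TF, 2 to 15 in CSE, 4 to 20 in Veh, 0 to 2 for CSE and 0 to 1 for the drugs in the fibroblast fraction, and were 0 in the other 12 comparisons. The fits with mouse 1 left out of the block, or with the block and covariate together, were chosen after seeing the data. The 3 mice limit every test, and the causes of these changes were not tested.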
